A study of Mus musculus with 141 samples.

Results

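In 66 stretches of 1 kb, many of the single glioma cells cultured with vehicle were nearly unmethylated at the CpGs read in them. Many others were nearly fully methylated at theirs, and the CpGs read often differed between cells. Intermediate cells made up 0 to 40% of the DMSO cells of a window, and 6 windows had none. These windows were chosen from the 17139 autosomal 1 kb windows measured in at least 10 vehicle cells, of which they are 0.385%. A cell was counted in a window with 4 or more methylation calls there, and its level is the mean of those calls. A window was kept where 30% or more of the DMSO cells were low (a level of 20% or below) and 30% or more were high (80% or above). The DMSO values therefore chose the windows and are given as a description, while the AG-881 cells played no part in the choice. In the 66 windows the calls of a DMSO cell spanned a median of 75 bases. Of the pairs of a high and a low DMSO cell in the same window, 42.7% shared a called position. The other pairs were read at different CpGs of the window.

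The cells are from a mouse glioma line that carries the R132H mutation of IDH. They had been kept for over 2 weeks in 1 µM AG-881, an inhibitor of mutant IDH, or in its vehicle DMSO. Live cells (positive for calcein AM, negative for TO-PRO-3) were sorted singly, and CpG methylation was read by single-cell reduced representation bisulfite sequencing after MspI digestion, in 67 cells with AG-881 and 74 with DMSO. The labels name 1 plate and no separate cultures per arm, so each arm is 1 sample, there is no replicate check of any difference, and no test was run. Cells of 1 arm are not replicates of the treatment, and every interval below is a 95% Clopper-Pearson interval, or combines 2 of them, and covers counting error only. AG-881 cells formed library pools 1 to 4 and DMSO cells pools 5 to 8. No pool mixes the arms, and an effect of pool cannot be told apart from one of treatment. All 24 cell barcodes recur in more than 1 pool. The matched transcriptomes were not analysed here, so the identity of the cells was not checked against marker genes. AG-881 cells had a median of 94674 positions called (range 25274 to 202478) and DMSO cells 71688.5 (range 11001 to 176217).

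A CpG on 1 DNA molecule is either methylated or not, and neighbouring CpGs on a molecule tend to share their state. At an imprinted locus the copy from 1 parent is methylated and the other is not, so an average over both copies is intermediate although each molecule is not. A cell profiled by bisulfite sequencing often yields reads from only 1 copy of a fragment. The mutant IDH enzyme makes 2-hydroxyglutarate, which inhibits the TET enzymes that oxidise methylated cytosine.

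The following 4 sequences show where the calls lie in windows that the results below turn on. They are the 250 bases upstream of a gene start, from RefSeq on GRCm38.p6, written 5′ to 3′ on the strand of the gene, and capitals mark the CpGs called in at least 1 cell within the window. Igf2r and Mcts2 stand for the imprinted windows, Oxsm for a window with fewer high cells in AG-881, and Gpc2 for a window whose high and low cells were read at different positions.
Igf2r upstream, chr17:12769707-12769956, minus strand: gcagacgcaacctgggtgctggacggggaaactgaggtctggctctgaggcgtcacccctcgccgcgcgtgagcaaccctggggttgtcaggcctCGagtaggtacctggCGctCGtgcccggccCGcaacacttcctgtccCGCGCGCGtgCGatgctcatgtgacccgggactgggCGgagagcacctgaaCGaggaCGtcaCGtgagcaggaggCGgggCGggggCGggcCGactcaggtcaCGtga
Mcts2 upstream, chr2:152686898-152687147, plus strand: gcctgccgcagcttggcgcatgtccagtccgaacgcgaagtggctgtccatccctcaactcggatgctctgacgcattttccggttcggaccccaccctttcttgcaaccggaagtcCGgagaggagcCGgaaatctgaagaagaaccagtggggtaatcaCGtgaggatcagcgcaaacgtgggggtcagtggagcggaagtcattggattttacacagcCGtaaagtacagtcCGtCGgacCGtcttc
Oxsm upstream, chr14:16243332-16243581, minus strand: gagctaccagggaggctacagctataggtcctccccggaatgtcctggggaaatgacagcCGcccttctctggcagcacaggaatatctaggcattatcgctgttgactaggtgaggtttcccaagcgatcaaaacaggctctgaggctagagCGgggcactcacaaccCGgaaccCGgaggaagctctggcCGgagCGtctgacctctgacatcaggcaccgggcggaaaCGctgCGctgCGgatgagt
Gpc2 upstream, chr5:138279938-138280187, minus strand: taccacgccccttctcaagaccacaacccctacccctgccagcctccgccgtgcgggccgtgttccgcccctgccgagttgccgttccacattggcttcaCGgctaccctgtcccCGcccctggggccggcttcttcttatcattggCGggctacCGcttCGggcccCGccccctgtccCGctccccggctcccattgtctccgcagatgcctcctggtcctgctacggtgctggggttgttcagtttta

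In the Igf2r sequence 33.5% of 158 AG-881 calls were methylated, against 48.8% of 80 DMSO calls. In the Mcts2 sequence 25% of 40 AG-881 calls and 20.5% of 39 DMSO calls were methylated. In the Oxsm sequence the AG-881 cells had 20.5% of 39 calls methylated and the DMSO cells 57.8% of 45. The Gpc2 sequence had no methylated call among 81 in AG-881 cells, which allows a level of up to 3.70% (3 calls of the total), and 1.75% of 57 calls in DMSO cells. Of the 26 upstream sequences that lie in the 66 windows and hold a call, 23 contain CCGG, the site that MspI cuts (a palindrome, so the same on both strands), as do 47.1% of the upstream sequences of all 32851 RefSeq gene starts in the table. A match describes these letters only, and windows were measurable only where MspI cut.

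The 66 windows lie on every autosome except chromosome 19, with 8 on chromosome 7 (12.1%, against 6.4% of all measured windows). A gene start lay within 1 kb of 38 of them (57.6%, against 63.2% of all measured windows). Another 19 lay inside a gene without a start nearby (28.8% against 25.9%). No RefSeq gene lay within 1 kb of 7 windows (10.6% against 7.71%). The window named for Tead1 overlapped no gene and had an edge of Tead1 within 1 kb, without a listed gene start. Which edge of the gene this is was not looked up. The gene starts of chromosome 18, which holds 1 window, were not looked up. A protein-coding gene lay within 1 kb of 51 windows (77.3% against 88.3%). The windows held a median of 22 positions of the table, fewer than the 31 of all measured windows. Exons, introns and UTRs were not looked up.

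Of the gene lists examined, imprinted genes and developmental transcription factors gave the most windows. A window was counted here when a gene of a list of 70 imprinted genes lay within 1 kb. This held for 6 of the 66 windows (9.09%) and for 71 of all 17139 (0.414%). The most like set was 1925 windows with 10 or more cells in each arm and a DMSO mean level of 30 to 70%. An imprinted gene lay within 1 kb of 14 of these (0.727%). That set includes 55 of the 66 windows. The other 11 had fewer than 10 AG-881 cells, Mcts2 and Kcnq1ot1 (9 cells each) among them. Shares of the 66 windows and of this set, for every list here, thus rest on unlike cell limits. Of the 6 imprinted windows, 1 met the limits with 6 calls per cell and 2 with 40% of cells at each extreme. Genes matched as developmental transcription factors gave 6 windows (Gli2, Runx1, Runx3, Tead1 and a pair at Sox1ot, a transcript that overlaps Sox1 and encodes no factor), which is 9.09% against 1.79% of all and 6.03% of the intermediate windows. Without such overlapping transcripts it was 4 windows, 6.06% against 1.76% of all and 5.92% of the intermediate windows. A list drawn up for the glial lineage gave 2 windows, at Pmp22 and at Ccr10 with Cntnap1 (3.03%, against 0.204% of all and 0.468% of intermediate windows). A match to this list does not make a gene specific to glia. Zinc finger genes gave 2, at Zfp180 and Zfp978 (3.03%, against 1.85% and 0.831%). Germline genes gave 1, at Stag3 (1.52%, against 0.0408% and 0.0519%). These shares rest on 7 of all measured windows and on 1 intermediate window, which is the Stag3 window itself. No excess is read from a single window. Hox genes, clustered protocadherins and Notch pathway genes gave 0, of 69, 4 and 50 measured windows.

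Each window had few cells. Between 10 and 37 DMSO cells were counted per window (median 13, against 19 over all measured windows), and 15 of the 66 had exactly 10. AG-881 cells numbered 2 to 33 per window (median 15), and 55 of the 66 windows had 10 or more. The windows just inside the limits had 30% of DMSO cells at the scarcer extreme. Those were Maip1 with Tyw5 and the second Sox1ot window with 6 of 20 cells, and Gli2 and Ccr10 with 3 of 10. Just outside were Insm1, Fzd9 and Nxph1, each with 8 of 27 cells (29.6%), and the imprinted Plagl1 with Hymai (5 of 17, 29.4%). Every window had both low and high DMSO cells in at least 2 of the 4 DMSO pools, and in each a single pool held both kinds. The rule itself required low and high DMSO cells, so nothing is read from this about the pools.

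**Figure D1:**
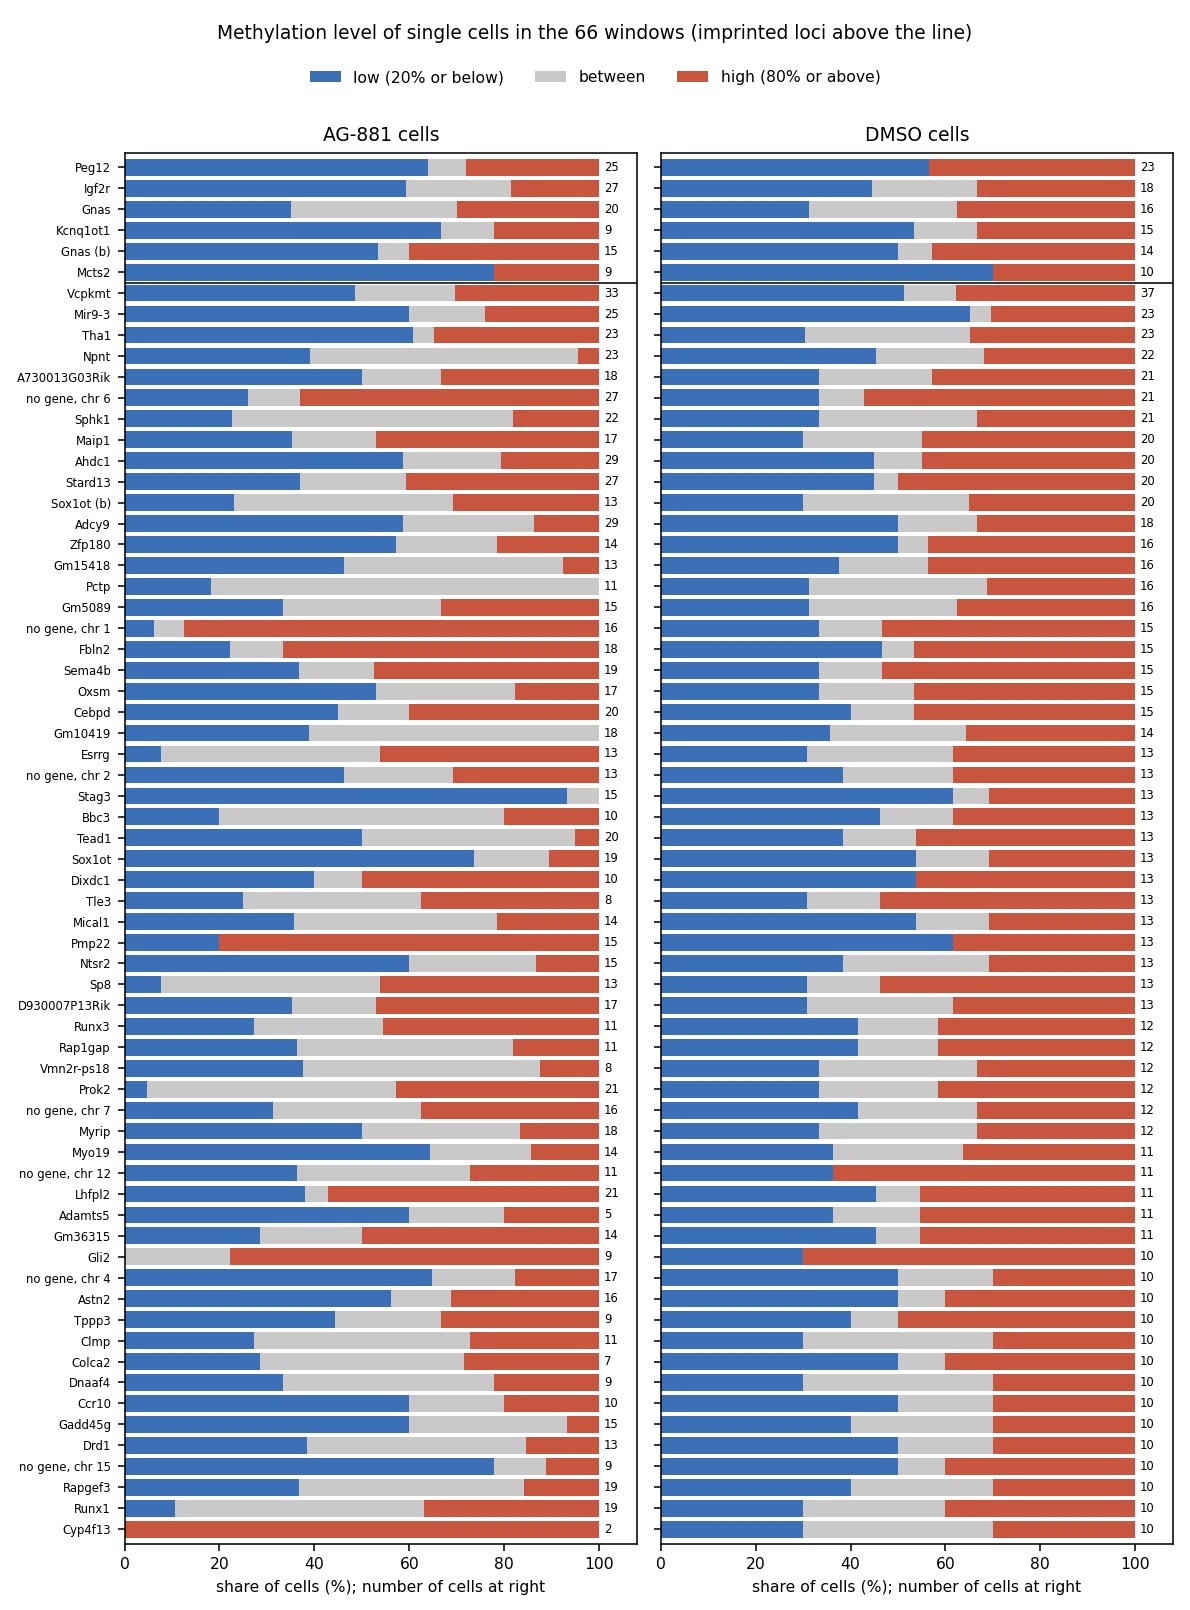
Share of low (20% or below), intermediate and high (80% or above) cells in each of the 66 windows. AG-881 cells are on the left and DMSO cells on the right, with the number of cells beside each bar. Windows with a gene nearby are named for such a gene, which is not always the nearest. The 6 imprinted windows stand above the line, and intermediate cells (grey) made up 27.6% of all cell-window values in AG-881 and 18.4% in DMSO.

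The 6 imprinted windows held low and high cells in both arms, with cell levels from 0 to 100% in each. Peg12, a gene expressed from the paternal copy in the mouse counterpart of the Prader-Willi region, was the imprinted window with the most DMSO cells (chr7:62464000-62464999). It had 16 low, 2 intermediate and 7 high cells among 25 AG-881 cells, against 13, 0 and 10 among 23 DMSO cells. Igf2r encodes a receptor that carries the growth factor IGF2 to the lysosome, and its copy-specific silencing depends on the antisense RNA Airn, which starts inside the gene. The window at the Igf2r start (chr17:12769000-12769999) had 16 low, 6 intermediate and 5 high cells of 27 with AG-881, against 8, 4 and 6 of 18 with DMSO. The mean level there was 25.9% ± 35.2 in AG-881 cells and 40.8% ± 42.3 in DMSO cells (SD between cells).

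Gnas encodes the stimulatory G protein alpha subunit from several promoters that differ in imprinting, and it had windows at 2 of its starts. The first (chr2:174284000-174284999) gave 7 low, 7 intermediate and 6 high cells of 20 in AG-881, against 5, 5 and 6 of 16 in DMSO. The second (chr2:174327000-174327999) gave 8, 1 and 6 of 15 in AG-881, against 7, 1 and 6 of 14 in DMSO. These 2 windows met the same limits in the AG-881 cells. Kcnq1ot1 is an RNA made from the paternal copy whose start lies inside Kcnq1, a potassium channel gene. Its window (chr7:143295000-143295999) had 6 low, 1 intermediate and 2 high cells of 9 in AG-881, against 8, 2 and 5 of 15 in DMSO. Mcts2, a retrocopy inside the H13 gene that is expressed from the paternal copy, had 7 low and 2 high cells of 9 in AG-881, against 7 low and 3 high of 10 in DMSO, and no intermediate cell in either (chr2:152687000-152687999).

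Over the 6 imprinted windows, 16.2% of 105 AG-881 values and 12.5% of 96 DMSO values were intermediate. High cells made up 26.7% in AG-881 and 37.5% in DMSO, a difference of -10.8 percentage points whose interval (-24.1 to 2.74) includes 0. The other imprinted windows of the table were mostly of other kinds. Of all 71, near 47 genes of the list, 26 had a DMSO mean level below 20%, 31 were between 20 and 80%, and 14 were above 80%. The window at chr17:12742000-12742999, in the stretch shared by Igf2r and Airn, missed the limits with 7 low, 3 intermediate and 4 high of 14 DMSO cells. It had 4, 1 and 6 of 11 in AG-881.

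The windows outside the imprinted list with the most cells behaved in several ways. Vcpkmt, a lysine methyltransferase gene, had the most of all (chr12:69582000-69582999), with 16 low, 7 intermediate and 10 high of 33 AG-881 cells, against 19, 4 and 14 of 37 DMSO cells. Tha1, a threonine aldolase gene, had 14, 1 and 8 of 23 in AG-881, against 7, 8 and 8 of 23 in DMSO, so the high share was equal and fewer AG-881 cells were intermediate. Mir9-3, one of the genes for the neural microRNA miR-9, had 15, 4 and 6 of 25 in AG-881, against 15, 1 and 7 of 23 in DMSO. Stard13 had 10, 6 and 11 of 27 in AG-881, against 9, 1 and 10 of 20 in DMSO. It is described because it is 1 of 3 windows, with Peg12 and Zfp180, that stayed in the list under each of 5 changed settings, and it was chosen after its values were seen.

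Cells can be read at the same or at different CpGs of a window, so the positions called in each cell were compared. Of 2525 pairs of 1 high and 1 low DMSO cell in the same window, 1077 (42.7%) had at least 1 called position in common. In 32 windows 50% or more of the pairs shared a position, in 27 it was 10 to 50%, and in 7 it was under 10%. All pairs did so at Gli2, Astn2, Zfp180, Tppp3, Clmp, Cyp4f13 and a window without a gene on chromosome 15. No pair did so at A730013G03Rik, Runx3, Stag3, Pctp, Adcy9 and Adamts5.

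The AG-881 cells gave a reading of those positions that was independent of the choice. For 60 windows, the mean AG-881 level was taken at the positions called in high DMSO cells and at those called in low DMSO cells. The median difference between both was 2.23 percentage points, and 38 windows were within 10 points. In 18 windows the positions of high cells were also more methylated in AG-881 cells by over 10 points, and in 7 by over 40. At A730013G03Rik the AG-881 level was 84.1% at the positions of high DMSO cells and 3.57% at those of low DMSO cells. At Runx3, a Runt transcription factor gene, it was 75.9% and 0%, and at Adcy9, an adenylate cyclase gene, 74.9% and 5.57%. These windows span CpGs of different level, and their low and high cells were read at different CpGs. The largest difference the other way was -38.6 points.

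**Figure D2:**
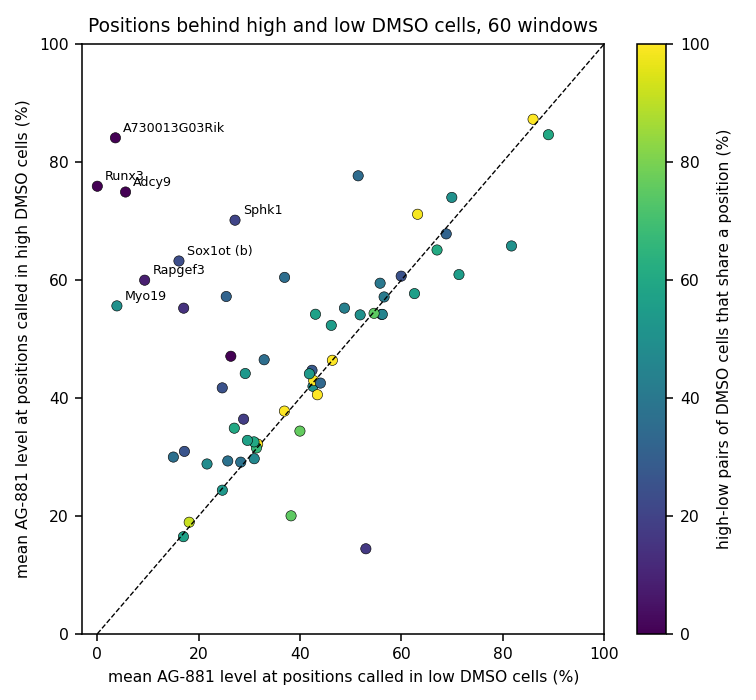
Mean AG-881 level (%) at the positions called in low DMSO cells (horizontal axis) and in high DMSO cells (vertical axis) for 60 windows, coloured by the share of high-low pairs of DMSO cells that share a position (%). Windows on the dashed line have the same AG-881 level at both; the 7 named windows lie over 40 points above it.

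Sets of CpGs read together allowed a comparison at fixed positions. For each window the set of positions most often called together was taken (median 5 positions over 45 bases), over the cells with exactly that set. In the 66 windows these sets were carried by 302 AG-881 and 302 DMSO cell-window values, each cell counted once per window. A cell can thus recur across windows, and the intervals treat its values as separate. They were fully methylated in 25.2% with AG-881 and 28.8% with DMSO, and fully unmethylated in 40.7% with AG-881 and 37.1% with DMSO. The rest were mixed, 34.1% (28.8 to 39.8) in each arm. In 1870 other windows of DMSO mean level 30 to 70%, mixed sets made up 71.9% in AG-881 cells (70.9 to 72.8) and 75.7% in DMSO cells (74.8 to 76.7). Fully methylated and fully unmethylated cells both occurred for the same set at 26 of the 66 windows in AG-881 and at 27 in DMSO. Only 43 of the 66 windows had the set in 3 or more cells of each arm. This count was not made over the 1870 other windows, and the rule itself required low and high DMSO cells.

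**Figure D3:**
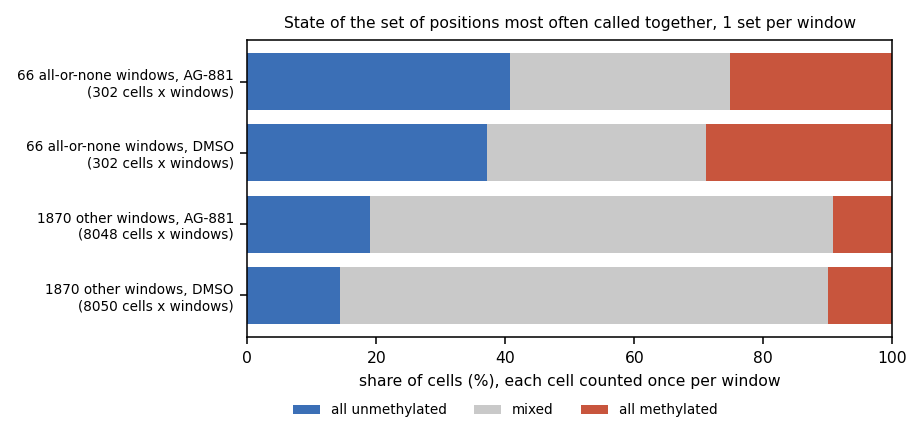
Share of cell-window values (%) in which the most often called set of positions of a window was fully unmethylated, mixed or fully methylated, for the 66 windows and for 1870 other windows of intermediate DMSO level, in AG-881 and DMSO cells (each cell counted once per window). Mixed sets make up 34.1% of the AG-881 values in the 66 windows and 71.9% in the others.

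The set carried by the most cells lay on chromosome 6 with no gene within 1 kb (chr6:3201000-3201999). Its 5 positions from 3201432 to 3201557 were fully methylated in 12, fully unmethylated in 4 and mixed in 1 of 17 AG-881 cells. The DMSO cells gave 9, 5 and 4 of 18. At Zfp180, a zinc finger gene (chr7:24082000-24082999), the 6 positions from 24082143 to 24082204 were fully methylated in 2, fully unmethylated in 3 and mixed in 2 of 7 AG-881 cells, against 4, 4 and 1 of 9 DMSO cells. At the imprinted windows 1 of 31 AG-881 and 6 of 38 DMSO cell-window values were mixed. The 4 positions at Kcnq1ot1 were fully unmethylated in all 5 AG-881 cells that carried them, while 4 of 10 DMSO cells were fully methylated, 5 fully unmethylated and 1 mixed. The 5 positions at Stag3 were fully unmethylated in all 12 AG-881 and all 4 DMSO cells that carried them.

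Calls of 1 cell agreed more often at short than at long distance in both arms. In the 66 windows, 2 calls of the same cell 2 to 50 bases apart had the same state in 82.4% of pairs in AG-881 cells and 83.5% in DMSO cells. In the farthest group plotted, up to 500 bases apart, it was 68.3% in AG-881 and 71% in DMSO. Beyond 500 bases it was 45.9% of 1198 pairs in AG-881 and 61% of 567 in DMSO, so the AG-881 value was below that of different cells. Calls of different cells in the same window agreed in 55.5% of pairs in AG-881 and 50.7% in DMSO. In the 1870 other intermediate windows agreement at 2 to 50 bases was 67.1% in AG-881 and 65.6% in DMSO, and in the farthest group plotted 56.9% in AG-881 and 55.8% in DMSO. Beyond 500 bases it was 52.5% in AG-881, above the 66 windows, and 53.6% in DMSO, below them. Pairs within a cell share reads, so these are descriptions. The rule asked for DMSO cells with nearly uniform calls, and the other windows did not meet it. The gap between both sets in DMSO cells is thus in part set by the choice, and nothing is read from it. The calls of a cell spanned a median of 82 bases in AG-881 and 75 bases in DMSO. Among AG-881 cell-window values 23.3% were intermediate where the calls spanned up to 100 bases, and 33.8% where they spanned more. At the imprinted windows these shares were 8.82% of 68 and 29.7% of 37 AG-881 values.

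**Figure D4:**
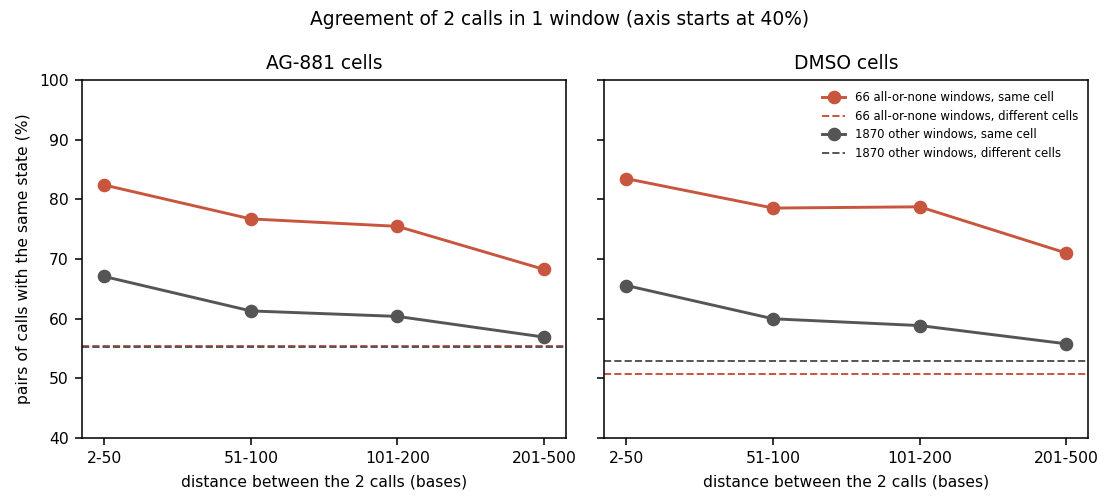
Share of pairs of calls with the same state (%, axis from 40%) against their distance in bases, for calls of 1 cell (lines) and of different cells (dashed), in the 66 windows (red) and 1870 other intermediate windows (grey), AG-881 on the left and DMSO on the right. At 2 to 50 bases the 66 windows reach 82.4% in AG-881, above 67.1% in the others; the dashed lines of the AG-881 panel coincide at about 55%.

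Single cells held windows of both states. Among cells with 10 or more windows at either extreme, 20 to 66.7% of the windows were high in 41 AG-881 cells (median 41.7%), and 16.7 to 81.8% in 40 DMSO cells (median 50%). None of these cells was high in all or low in all of its windows. For windows on different chromosomes, the same cell was in the same state in 51.5% of 4443 comparisons in AG-881 and 51% of 4459 in DMSO. The nearest pair of the 66 windows was 40 kb apart. Another measured window within 5 kb was available for 27 of them. A cell at an extreme in both was in the same state in 68.5% of 178 comparisons in AG-881 and 59.7% of 134 in DMSO. These neighbours were not chosen for holding both states, so the shares are not comparable with those for different chromosomes. The share expected without any link between neighbours was not computed. Of 18 directly adjacent measured windows, 9 had a DMSO mean level below 20%, 7 were between 20 and 80%, and 2 were above 80%.

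In the AG-881 cells, 16 of the 55 windows with 10 or more cells met the same limits (29.1%), where 0.402% of the 15685 windows measured in both arms and 2.81% of the 1925 intermediate windows did. These 16 are 24.2% of the DMSO list and 17.4% of the 92 windows that met the limits in AG-881 cells. They include Vcpkmt, Stard13, Tha1, Maip1, both Gnas windows, Sema4b, Cebpd and A730013G03Rik. Among these named windows, high-low pairs of AG-881 cells shared a position least often at A730013G03Rik (0%) and Cebpd (8.33%), and most often at Tha1 (42%). The share that met the limits in AG-881 was 28% of 25 windows in which 50% or more of the high-low pairs of DMSO cells shared a position. It was 32% of 25 in which some but fewer did. It was 20% of 5 windows with no shared position.

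Over all 66 windows, high cells made up 30.1% of 1049 AG-881 values and 40% of 951 DMSO values. The difference was -9.83 points (-14.1 to -5.58). Intermediate cells made up 27.6% in AG-881 and 18.4% in DMSO, a difference of 9.15 points (5.4 to 12.9), and low cells 42.3% in AG-881 and 41.6% in DMSO. By pool the high share was 30.7, 28.1, 32.5 and 29.4% in AG-881 pools 1 to 4, and 35.7, 41.2, 42.8 and 40.6% in DMSO pools 5 to 8. The pools of the arms did not overlap in these windows, which the DMSO shares chose. Shares by pool were not taken in other windows, so nothing is read from this. The rule required high and low cells in DMSO and nothing in AG-881, and the sign turned with the choice of arm. In the 92 windows chosen by the same limits in AG-881 cells, the high share was 38% in AG-881 and 34.8% in DMSO, a difference of 3.16 points (-0.458 to 6.75). There 20% were intermediate in AG-881 and 31% in DMSO. In the other intermediate windows the high share was 14.9% in AG-881 and 17.6% in DMSO, a difference of -2.71 points (-3.25 to -2.17).

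Window by window, the high share was lower in AG-881 in 41 of 55 (74.5%), higher in 13 and equal in 1. Over all windows measured in both arms it was lower in 17.8%, and over the intermediate ones in 58.9%. A difference of 20 points or more downward was seen in 14 of 55 windows (25.5%, against 2.3% of all and 7.17% of intermediate windows). Upward it was seen in 3 of 55 (5.45%, against 1.73% and 4.57%). The median difference was -9.26 points, with -3.03 over the intermediate windows, and the range ran from -41.2 to 41.5. Since the rule used the DMSO shares, nothing is read from these counts about the treatment.

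The interval of the difference left out 0 in 5 of the 55 windows, with fewer high cells in AG-881 in 4 and more in 1. This count was not made over the other measured windows. The rule used the DMSO shares, so nothing is read from it about the treatment. At Tead1, a transcription factor gene of the Hippo pathway (chr7:112678000-112678999), 1 of 20 AG-881 cells was high, against 6 of 13 DMSO cells. The difference was -41.2 points (-70.3 to -7.68). At Gm10419 (chr5:108366000-108366999) 0 of 18 AG-881 cells were high, which allows a share of up to 16.7% by 3 counts of the total (18.5% by Clopper-Pearson), against 5 of 14 DMSO cells. At Stag3, a subunit of meiotic cohesin, which shares its start region with the glypican gene Gpc2 (chr5:138280000-138280999), 0 of 15 AG-881 cells were high, which allows up to 20% by 3 counts (21.8% by Clopper-Pearson), against 4 of 13 DMSO cells. The 4 high DMSO cells there shared no position with the 8 low ones. No position of the high DMSO cells had 3 or more AG-881 calls, while the positions of the low ones were at 0% in AG-881. Most AG-881 calls of this window thus lie at positions other than those of the high DMSO cells, and the part this plays in the difference was not tested. At Npnt, an extracellular ligand of integrins (chr3:132949000-132949999), 1 of 23 AG-881 cells was high and 13 were intermediate, against 7 and 5 of 22 DMSO cells. At Pmp22, a myelin protein gene (chr11:63131000-63131999), 12 of 15 AG-881 cells were high and 3 low, against 5 high and 8 low of 13 DMSO cells, a difference of 41.5 points (0.47 to 70.7). At Npnt 14.3% of the high-low pairs of DMSO cells shared a position. There the positions of high DMSO cells were more methylated in AG-881 cells than those of low ones, by 38.2 points. The same difference was 31.7 points at Gm10419, 14.9 at Tead1 and 4.05 at Pmp22. The part that positions play in these windows was not tested.

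Other windows with 15 or more cells in each arm had intervals that include 0. Oxsm, a gene of mitochondrial fatty acid synthesis whose upstream sequence is printed above (chr14:16243000-16243999), had 3 high of 17 AG-881 cells, against 7 of 15 DMSO cells. Ahdc1, a gene for a DNA-binding protein, had 6 of 29 in AG-881, against 9 of 20 in DMSO. Adcy9 had 4 of 29 in AG-881, against 6 of 18 in DMSO. Sphk1, a sphingosine kinase gene, had 4 of 22 high and 13 intermediate in AG-881, against 7 and 7 of 21 in DMSO. In the other direction, a window without a gene on chromosome 1 (chr1:121178000-121178999) had 14 high of 16 AG-881 cells, against 8 of 15 DMSO cells. Fbln2, a gene for the matrix protein fibulin-2, had 12 of 18 in AG-881, against 7 of 15 in DMSO. Maip1, a mitochondrial protein gene, had 8 of 17 in AG-881 and 9 of 20 in DMSO. The window on chromosome 6 had 17 of 27 in AG-881 and 12 of 21 in DMSO.

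**Figure D5:**
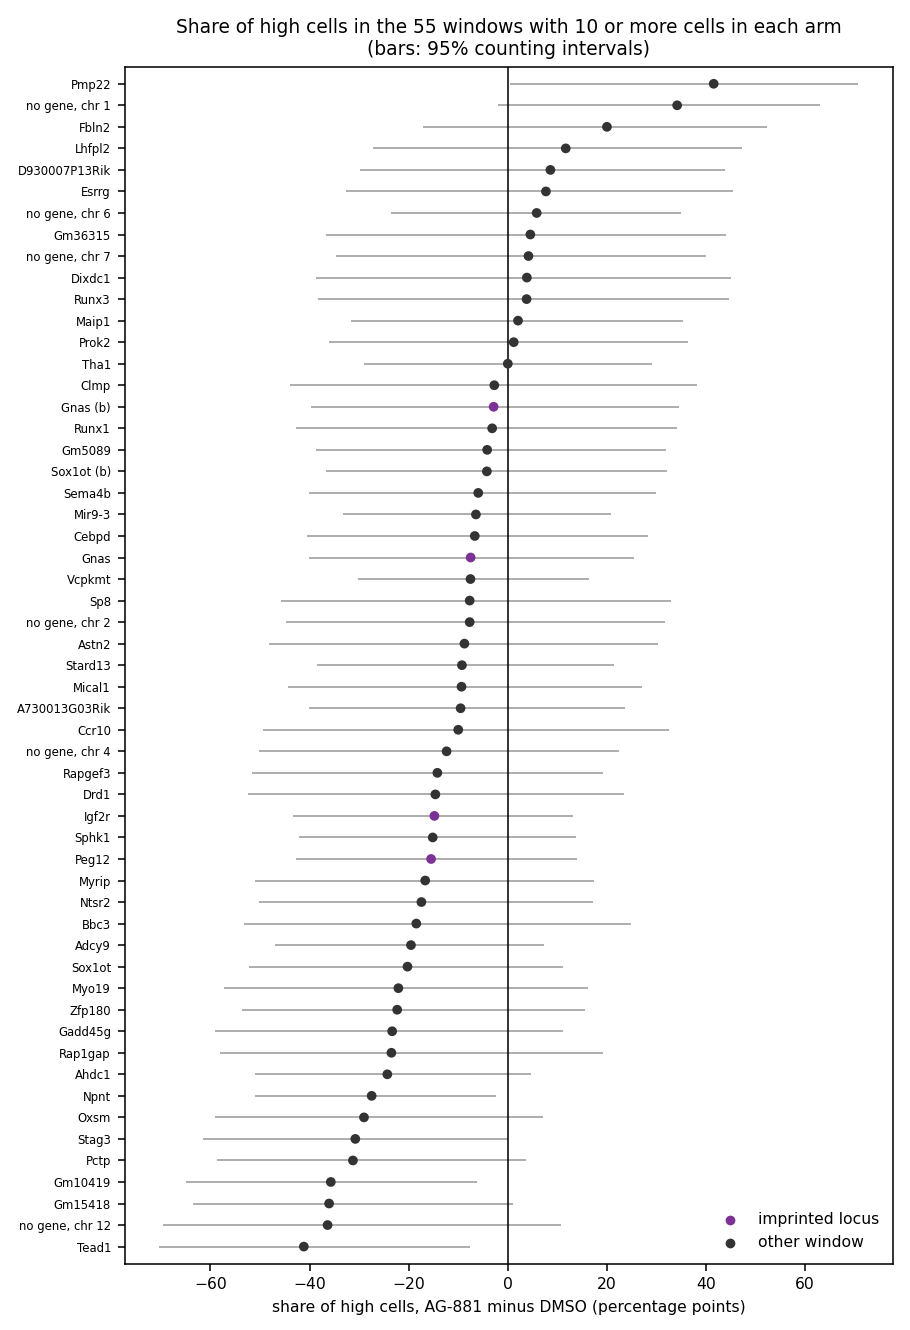
Difference in the share of high cells, AG-881 minus DMSO, in percentage points for the 55 windows with 10 or more cells in each arm, with 95% counting intervals. Values run from -41.2 at Tead1 to 41.5 at Pmp22, most intervals include 0, and imprinted windows are in purple.

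The difference was also taken by how far high and low DMSO cells shared positions. Where 50% or more of the pairs did, high cells made up 35.8% in AG-881 and 42.5% in DMSO, a difference of -6.66 points (-13.3 to 0.0765). Where some but fewer did, they made up 27.3% in AG-881 and 38.2% in DMSO (-10.9 points, -16.9 to -4.86). In the 6 windows with no shared position, the shares were 18% in AG-881 and 37.4% in DMSO (-19.4 points, -32.4 to -5.60). These intervals overlap, and the part that positions play in the difference between the arms was not tested.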

How the data were processed

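Single-cell reduced representation bisulfite data of 141 mouse cells were used. The deposited table gives, for each cytosine and cell, a methylated fraction of 0, 0.5 or 1, as the authors made it, with 0.412% of values at 0.5. Positions follow mm10, per the submitters' processing notes, while the aligner and methylation caller were not given in the sources used here. No read counts come with the fractions, so read depth is unknown and depth is given as positions called. Column names gave arm and pool but not the well. Of 12325314 values, the 12051648 on chromosomes 1 to 19 were used, without merging strands.

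Levels were computed with Python 3.11.15, pandas 2.3.3, numpy 2.4.6 and scipy 1.17.1. The window rule was tested on simulated data. Members and gene lists were chosen with earlier results of these data known. Gene positions are RefSeq, GRCm38.p6. The windows named were the imprinted ones, the 10 with most DMSO cells, the 6 largest decreases and up to 6 increases with 15 or more cells per arm (4 windows had one), those at the limits, and the largest of each list. Windows whose interval left out 0 were also named after their values were seen, as were those named by shared positions. The planned agreement between neighbouring members had no pairs and was replaced. Intervals of a difference combine both arms' intervals. Alternatives are given in the closing section.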

Additional observations from a re-analysis of the deposited data

How the results depend on the processing

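The number of windows depended on the limits. It was 102 with 3 calls per cell, 27 with 6 calls, 25 with 15 cells per window, 14 with limits of 10 and 90%, 16 with 40% of cells at each extreme, and 31 where levels exactly at 20 or 80% were not counted, the last chosen after seeing the data. It was 61 with strands merged and 77 with windows shifted. Leaving out 1 DMSO pool gave 49 to 59 windows. The 66 windows and these sets shared 55, 15, 25, 14 and 16 windows in the order of the first 5 settings. The share of windows that met the limits in AG-881 was 45% (9 of 20) with 15 cells, and 20.5 to 35.7% without 1 AG-881 pool. The difference in high cells stayed between -7.49 and -11.4 points under the alternatives run, except that it was 3.16 points in the windows chosen in AG-881 cells, an alternative added after seeing the data. Imprinted windows numbered 6 with overlap only and with 5 kb. Of these 6, the limits were still met by 6 with 3 calls, 1 with 6 calls, 2 with 40% at each extreme, and 4 each with 15 cells, with limits of 10 and 90% and with strands merged. Agreement of neighbouring members could not be computed under any setting, since no 2 lie within 5 kb. No paired analysis was possible because the columns carry no replicate numbers. With 10 to 37 DMSO cells per window, a share of single windows is known only to within wide intervals.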

Other observations

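Outside the autosomes, 1 of 345 measured windows of chromosome X met the same limits in DMSO cells (0.29%). It lies at Mid1ip1, a gene for a protein that binds microtubule-associated MID1 (chrX:10717000-10717999). It had 6 low, 4 intermediate and 0 high of 10 AG-881 cells, which allows a high share of up to 30%, against 6 low, 5 intermediate and 5 high of 16 DMSO cells. Every cell had calls on chromosome Y.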
